A study of Mus musculus with 5 samples.

Results

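The nuclear genes for subunits of the oxidative phosphorylation (OXPHOS) machinery were followed through 5 RNAseq libraries of macrophages sorted from mouse aortas. Members were chosen by name alone, with no use of their values, as the protein_coding genes of the count table whose symbol begins with *Nduf* and a letter a, b, c, s or v plus a number, is one of the *Sdh* genes, or begins with *Uqcr*, with *Cox* and a digit of the complex IV series, or with *Atp5*. This gave 87 of 55487 genes in the table, and of 21936 protein_coding genes, with 38 in complex I, 4 in complex II, 8 in complex III, 19 in complex IV and 18 in complex V. The 87 genes carry 86 symbols, because *Atp5o* had 2 rows.

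In the inner mitochondrial membrane, complex I takes electrons from NADH and complex II takes them from succinate, and both pass them to coenzyme Q. Complex III moves the electrons on to cytochrome c and complex IV gives them to oxygen, while complexes I, III and IV pump protons that drive ATP synthesis by complex V. Each of these complexes except complex II combines subunits encoded in the nucleus with a few encoded in mitochondrial DNA. Macrophages are known to lean on this machinery to different degrees in different activation states, and complex II also joins it to the Krebs cycle.

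The macrophages came from male mice that were given a chow diet from birth for 8 weeks and then a Western diet, rich in fat and cholesterol, for 10 weeks, up to 18 weeks of age. All mice lacked *Apoe* (*Apoe*KO), which makes them prone to atherosclerosis. In *Zeb1*WT/*Apoe*KO mice (2 libraries, WT1 and WT2) both *Zeb1* alleles were floxed and no Cre was present, and in *Zeb1*∆M/*Apoe*KO mice (3 libraries, labelled KO1, KO2 and KO3) the floxed alleles were combined with Cre under control of the *Lyz2* (LysM) locus, which acts in myeloid cells at large and not in macrophages alone. The comparison asks how loss of ZEB1, a transcription factor, in myeloid cells alters the transcripts of aortic macrophages. Viable cells were sorted as CD45+ and F4/80+ by the labels, and also as CD11b+ by the study's methods, and each genotype's cells under a given condition were a pool from 3 mice, so the spread among libraries may be technical and every p-value below measures only that spread. Values of a gene are given in the order WT1 and WT2, then KO1, KO2 and KO3, as RSEM counts unless another scale is named.

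Total counts ran from 20118545 to 50649912 a library, so that 3 counts, the floor used for detection, stood for 0.0592 to 0.149 CPM (counts scaled to the total of the library). Floors cover counting error only, since the libraries were amplified and carried no molecular identifiers. KO1 stood apart from the other libraries, as it had 16423 genes above 3 counts against 5009 to 6931 elsewhere, but 870 genes with at least 100 counts against 1714 to 4421, and its TMM scaling factor was 0.515 against 1.03 to 1.42. *Zeb1* had 0 and 0 counts in the WT libraries and 22, 0 and 0 in the KO libraries, which does not check the genotype labels. Of 10 macrophage markers, 5 were above 3 counts in every library, and the list summed to 23047 to 33408 CPM, mostly from *Lyz2* and *C1qb*. Other defining markers were missing from single libraries, as *Cd68* had 0 and 44664 counts, then 10, 36172 and 46735, *C1qa* had 0 and 53826 counts, then 5, 48430 and 77519, and *Itgam*, which encodes the sort marker CD11b, had 441 and 3074 counts, then 0, 33 and 1988. Neutrophil markers summed to 3149 and 659 CPM in the WT libraries and 1360, 746 and 39.6 CPM in the KO libraries, with *Camp*, *Ngp*, *Elane* and *Mpo* at 0 in all 5. T and NK cell markers summed to 10.2 and 2698 CPM and to 1.56, 405 and 1344 CPM, and B cell markers to 227 and 0 CPM and to 2.67, 0 and 35.7 CPM. Fibroblast markers reached 531 CPM in KO2 alone (at most 2.23 CPM elsewhere), endothelial markers at most 72.3 CPM, and smooth muscle markers at most 0.451 CPM. Adipocyte and cardiac muscle markers summed to 457 and 51.9 CPM and to 1251, 0 and 11 CPM. No gene of these 8 lists was called by edgeR, which called 0 genes in the whole table. On the TMM scale *S100a9* (29483 and 10969 counts, then 0, 4180 and 1041) and *Lyz2* (596080 and 777264 counts, then 161607, 856923 and 869804) were lower in every KO library and *Col1a2* (0 and 0 counts, then 8, 5 and 111) higher. Abundant genes of the same lists went the other way. *S100a8* (33862 and 11811 counts, then 33132, 22405 and 962) had a log2 fold change of 0.48. *C1qb* (38760 and 191331 counts, then 398502, 177721 and 232428) had one of 2.0. Both overlapped between genotypes. Of the markers that did not pass the filter, *Kdr* (1455 and 6 counts, then 0, 5 and 0) and *Adipoq* (at most 2 counts) were lower. The part of other cells in the values below was not tested.

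The subunit genes took 2.53% and 1.43% of all counts in the WT libraries and 2.62%, 1.95% and 1.91% in the KO libraries, so the 2 genotypes overlapped. The number of subunit genes behind these shares varied more. In the WT libraries 57 and 77 of the 87 genes had more than 3 counts, and in the KO libraries 43, 66 and 73. WT2 and KO3 thus held most of the set, and KO1 the least. Most genes were either plainly present or missing from a library, as 44, 75, 21, 64 and 72 genes had at least 100 counts, whereas 28, 10, 36, 18 and 12 had none and 13, 2, 22, 2 and 1 lay between 4 and 99. In bulk RNA of this kind, fewer cells with a transcript and less RNA per cell cannot be told apart.

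Altogether 32 subunit genes were above 3 counts in all 5 libraries, namely 10 in complex I, 0 in complex II, 4 in complex III, 9 in complex IV and 9 in complex V. At the other end, 8 genes were at or below 3 counts in every library. The set was more evenly detected than protein_coding genes at large, since 32 of the 79 subunit genes with at least 100 counts in any library (40.5%) were above 3 counts in every library, against 943 of 6575 protein_coding genes (14.3%). With the stricter minimum of 100 counts in every library, 18 of 79 subunit genes (22.8%) and 276 of 6575 protein_coding genes (4.20%) were left. These shares are descriptions, given without a test. Without KO1, 48 subunit genes were above 3 counts in the 4 other libraries.

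The libraries differed in which subunit genes they held, within a genotype as well as across genotypes. A gene was counted as discordant in a pair of libraries when it had at least 100 counts in one and at most 3 in the other. Among genes with at least 100 counts in either library, the discordant share was 26.3% between WT1 and WT2 and 21.8% between KO2 and KO3, and over the 4 pairs within a genotype it ranged from 21.8% to 43.1% with a median of 34.7%. Over the 6 pairs across genotypes it ranged from 10.3%, for WT2 and KO3, to 44.0%, for WT2 and KO1, with a median of 27.3%. The pair with the most similar content was therefore 1 WT and 1 KO library. The losses of KO1 were nested, as 0 genes had at least 100 counts in KO1 and at most 3 in any other library. Those of WT1 were not, as 0 genes had at least 100 counts in WT1 and at most 3 in WT2, but 5 did so against KO2 and 1 against KO3.

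Transcripts that reached 100 counts in all 5 libraries were short. These 18 genes (6 of complex I, 1 of complex III, 7 of complex IV and 4 of complex V) had a median transcript length of 595 bases and a range of 371 to 1153 bases. The 61 subunit genes with 100 counts in 1 to 4 libraries had a median of 1076 bases and ranged from 390 to 4912 bases, and 36 of them (59.0%) were no longer than 1200 bases, as all 18 were. Protein_coding genes at large showed the same order, with a median of 1251 bases for the 276 genes with 100 counts in all 5 libraries and 2873 bases for the 6299 genes with 100 counts in 1 to 4 of them. The 8 subunit genes that were not above 3 counts in any library were short as well, from 360 to 934 bases. The part of transcript length in detection was not tested.

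**Figure D1:**
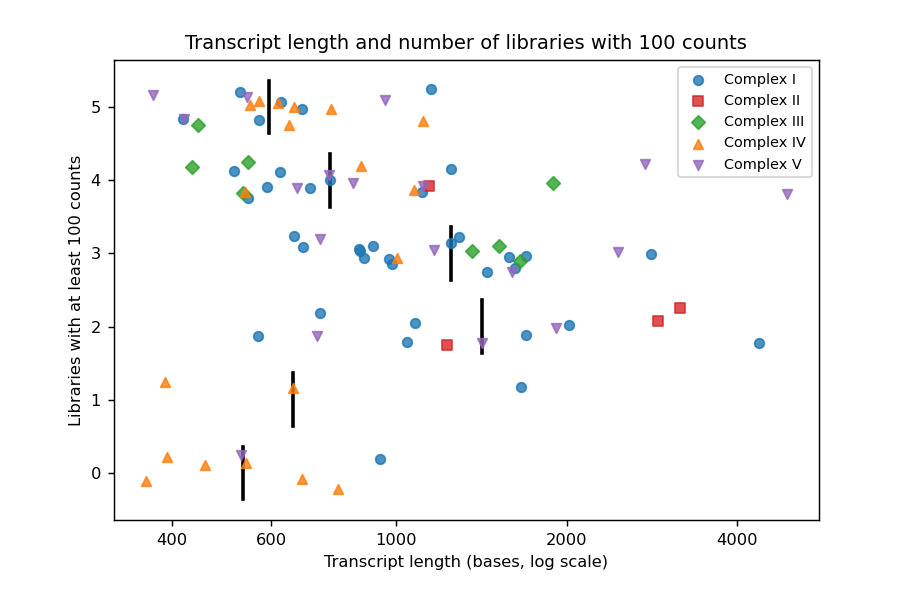
Transcript length in bases (log axis) is plotted against the number of libraries with at least 100 counts for the 87 genes, with symbols for complexes, a small vertical offset within each number, and a black bar at the median length. The 18 genes at 5 libraries lie between 371 and 1153 bases, genes at 1 to 4 libraries reach 4912 bases, and the genes at 0 libraries are short.

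The 12 nuclear genes for the catalytic core of complexes I, II, III and V (among them *Ndufv1*, *Ndufs1*, *Sdha*, *Sdhb*, *Uqcrfs1*, *Atp5a1* and *Atp5b*) were compared with the other subunits. Of these 12, 3 and 11 had at least 100 counts in the WT libraries, and 0, 9 and 9 in the KO libraries. None of the 12 reached 100 counts in all 5 libraries, and their median length was 1642 bases. The 65 genes that are neither catalytic, nor core proteins of complex III, nor tissue isoforms had a median length of 761 bases. Of these 65, 18 reached 100 counts in all 5 libraries. By library, 39 and 62 of the 65 had at least 100 counts in the WT libraries, and 21, 54 and 60 in the KO libraries. In WT2 nearly all genes of both kinds were thus at 100 counts.

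Complex I, the NADH dehydrogenase, was represented in every library by its small accessory subunits. *Ndufb8*, an accessory subunit of the membrane arm (chr19:44548572-44555440, GRCm38), had 25807 and 15089 counts in the WT libraries and 27441, 35941 and 23537 in the KO libraries. *Ndufa7* had 11717 and 6032 counts, then 48815, 8515 and 13147. *Ndufa2* had 23135 and 3068 counts, then 28748, 7982 and 12715. These 3 accessory genes had the highest complex I levels per length, with means over the 5 libraries of 1269, 1234 and 1011 CPM per kb, and each overlapped between genotypes. Without KO1 the means were 1172 CPM per kb for *Ndufb8*, 594 for *Ndufa7* and 749 for *Ndufa2*, and *Ndufa1* (997) came second. *Ndufa1*, a small membrane-arm subunit on the X chromosome, had 17803 and 5977 counts in the WT libraries and 109, 11752 and 14417 in the KO libraries. *Ndufb1-ps*, which is named as a pseudogene but annotated as protein_coding, had 2701 and 1102 counts, then 2984, 2780 and 1674. Both overlapped between genotypes, with *Ndufa1* at its lowest in KO1.

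*Ndufa4* is grouped with complex I by its name, although its product is now assigned to complex IV, and it too was high throughout. It had 9394 and 8024 counts in the WT libraries and 2936, 10302 and 9598 in the KO libraries. *Ndufa4l2*, its hypoxia-induced paralog, had 0 counts in all 5 libraries, which by counting error alone allows at most 0.0592 to 0.149 CPM. The other complex I genes above 3 counts in every library fell near the floor in WT1, KO1 or KO2. *Ndufa6*, an accessory subunit of the matrix arm, had 13217 and 4641 counts, then 36, 9387 and 13544. *Ndufb7* had 11 and 6384 counts, then 1202, 9337 and 12300. *Ndufc1* had 17268 and 729 counts, then 28937, 34 and 7521. The low library thus differed from gene to gene, being KO1 for *Ndufa6*, WT1 for *Ndufb7* and KO2 for *Ndufc1*.

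Catalytic subunits of complex I were at or near the floor in some libraries. *Ndufs1*, the largest iron-sulfur subunit, had 4 and 148 counts in the WT libraries and 7, 5397 and 19187 in the KO libraries. *Ndufv1*, which binds NADH and the flavin, had 0 and 5027 counts, then 18, 0 and 1, so that only WT2 held it above 100 counts. Summed over the complex, the level was 10865 and 5262 CPM in the WT libraries and 5801, 8008 and 7808 CPM in the KO libraries, scaled to total counts. In KO1 *Ndufa7* alone made up 34.5% of the complex I counts, while the leading gene of the other libraries made up 8.29% to 19.7%.

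Complex II, which oxidizes succinate and is encoded in the nucleus alone, had 4 detected genes in WT2 and KO2. It had 1 in WT1 and KO3 and 0 in KO1. *Sdhb*, its iron-sulfur subunit (chr4:140961203-140979193), had 9036 and 7915 counts in the WT libraries and 0, 11448 and 34689 in the KO libraries. *Sdha*, the flavoprotein with the succinate site, had 0 and 6102 counts, then 0, 8578 and 0. *Sdhc*, a membrane anchor, had 0 and 4463 counts, then 0, 6560 and 0. *Sdhd*, the other anchor, had 0 and 8786 counts, then 0, 1815 and 0. *Sdha*, *Sdhc* and *Sdhd* thus shared a pattern of 1 library in each genotype, and *Sdhb* was undetected in KO1 alone. Mean levels per length were 295 CPM per kb for *Sdhb*, 49.5 for *Sdhd*, 28.7 for *Sdha* and 19.7 for *Sdhc*. With 0 counts, the depth of KO1 allows at most 0.123 CPM for each of the 4 genes by counting error alone. Transcripts lost before sequencing would also read 0, and the macrophage markers *Cd68* and *C1qa* had only 10 and 5 counts in KO1. Such loss was not tested. The genotypes overlapped for each gene.

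Complex III, the cytochrome bc1 complex, had 1 gene that was high throughout. *Uqcr11*, a small accessory subunit, had 33566 and 5421 counts in the WT libraries and 28105, 16740 and 25707 in the KO libraries, and its mean level was 1777 CPM per kb. In KO1 it supplied 99.9% of all complex III counts. *Uqcrb*, a small subunit near the coenzyme Q site, had 9061 and 1309 counts, then 4, 9356 and 7703. *Uqcrfs1*, the Rieske iron-sulfur protein, had 5 and 9059 counts, then 16, 11492 and 13198. Both were near the floor in KO1, and *Uqcrfs1* in WT1 too.

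The 2 core proteins of complex III, *Uqcrc1* and *Uqcrc2*, were higher in every WT library than in any KO library. *Uqcrc1* (chr9:108936633-108949623) had 38039 and 28983 counts in the WT libraries and 0, 0 and 3178 in the KO libraries. On the TMM scale these were 1377 and 841 CPM, a mean of 1109 CPM ± 379 (SD, n = 2), against 0, 0 and 63.3 CPM, a mean of 21.1 CPM ± 36.5 (SD, n = 3). The lowest WT library was 13.3 times the highest KO library, the widest such gap among the 11 subunit genes that were detected in both genotypes without overlap between them. The log2 fold change was −5.72 (SE 3.74, edgeR adjusted p = 1). *Uqcrc1* was among the genes that the study displayed from these samples, so that it is not an independent pick. *Uqcrc2* (chr7:120635176-120659524) had 38171 and 17190 counts, then 4, 5072 and 16696, which on the TMM scale were 1382 and 499 CPM against 0.330, 119 and 332 CPM. Its log2 fold change was −2.64 (SE 3.33, edgeR adjusted p = 1), and the nearest libraries, WT2 and KO3, differed by a factor of 1.5. Without WT1 its log2 fold change was −1.61, and without KO3 it was −4.00. Without KO3, *Uqcrc1* is at 0 in both remaining KO libraries. Opposite to *Uqcrc2*, *Pdzd9* covers 19.7% of its exonic bases, but had at most 2 counts in any library.

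Complex IV, cytochrome c oxidase, had the largest share of genes with at least 100 counts in every library (7 of 19, 36.8%), and most of its isoform pairs were divided between a detected and an undetected form. *Cox6a1*, the broadly expressed form of subunit VIa (chr5:115345642-115348981), had 17470 and 8797 counts in the WT libraries and 88029, 14887 and 18380 in the KO libraries, whereas *Cox6a2*, the heart and muscle form, had 0 in all 5. *Cox4i1* had 10766 and 23193 counts, then 57566, 33295 and 37036, while *Cox4i2*, the form known from lung and hypoxia, had 0 in all 5. Most of the other pairs were alike. *Cox7a2* had 7594 and 3151 counts, then 60281, 11301 and 7622, against 0 for the muscle form *Cox7a1*. *Cox8a* had 142 and 10270 counts, then 37300, 20277 and 23391, against 0 for *Cox8b* and *Cox8c*. *Cox6b1* had 5803 and 8458 counts, then 45381, 23554 and 32763, whereas *Cox6b2*, the testis form, had 0 and 0 counts, then 2, 0 and 1182. *Cox7b* was less even, with 3024 and 3343 counts, then 0, 2 and 6001, so that in KO1 and KO2 it was at the floor together with *Cox7b2*, which had 0 in all 5. Of the 8 tissue isoforms in the set (*Cox4i2*, *Cox6a2*, *Cox6b2*, *Cox7a1*, *Cox7b2*, *Cox8b*, *Cox8c* and *Ndufa4l2*) 7 were not above 3 counts in any library, and *Cox6b2* was above 3 counts in KO3 alone.

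The remaining evenly detected genes of complex IV were each found at 100 counts or more in at least 4 libraries. *Cox5a*, a matrix-side subunit, had 8818 and 3768 counts in the WT libraries and 38770, 1149 and 9286 in the KO libraries. *Cox6c* had 8515 and 3753 counts, then 31510, 9506 and 9528. Both were highest in KO1 and overlapped between genotypes. *Cox5b*, the other matrix-side subunit, was not highest there, with 2244 and 3220 counts, then 21, 22968 and 4608. *Cox7a2l*, a paralog of the *Cox7a* genes that acts in joining complexes III and IV into supercomplexes, had 19 and 5558 counts, then 21688, 29402 and 16118. Mean levels per length were highest for *Cox6a1* (1931 CPM per kb), *Cox4i1* (1367) and *Cox6b1* (1197). Without KO1 the same genes led in another order, with *Cox4i1* at 937, *Cox6a1* at 833 and *Cox6b1* at 744 CPM per kb.

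As a share of the counts of all subunit genes, complex IV took 15.8% and 15.6% in the WT libraries and 59.5%, 25.6% and 17.8% in the KO libraries. On total counts its summed level was 4003 and 2230 CPM against 15614, 4986 and 3415 CPM, so that WT1 exceeded KO3 and the genotypes overlapped. On the TMM scale the sums were 2916 and 2239 CPM against 31402, 4170 and 3442 CPM, and the genotypes did not overlap. Whether complex IV as a whole lay above the WT libraries therefore turned on the scaling. KO1 held the most complex IV counts on both scales.

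**Figure D2:**
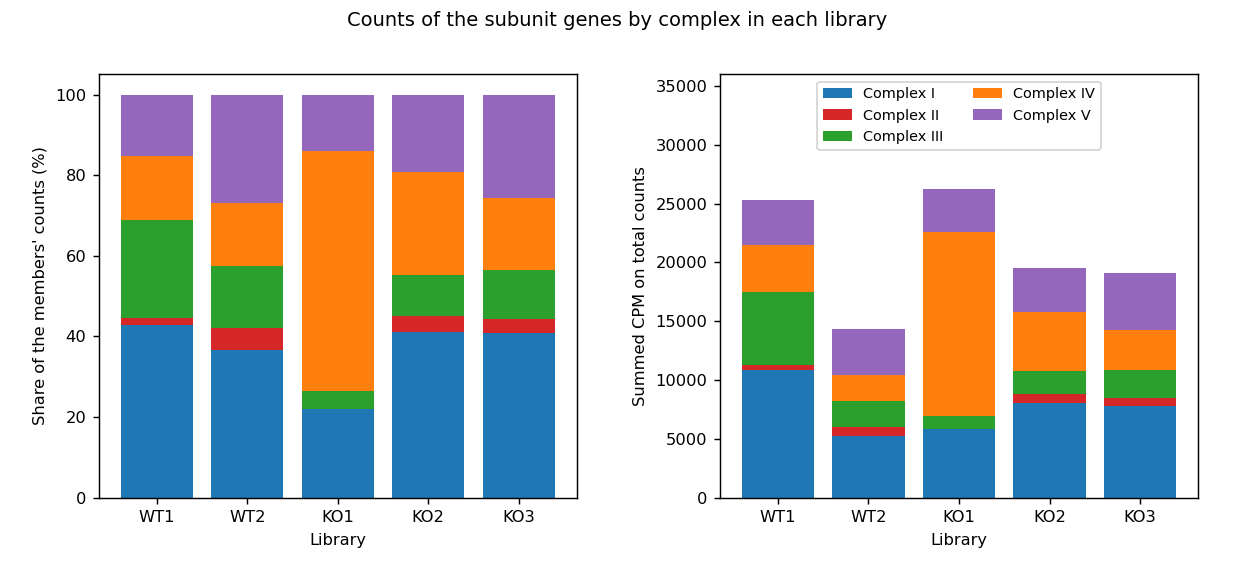
Stacked bars give, for each library, the share of the subunit genes' counts that fell in each complex (left, %) and the summed CPM on total counts (right), with 1 colour a complex. Complex IV takes 59.5% in KO1 and 15.6% to 25.6% in the other 4 libraries, and complex II has no bar in KO1.

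Complex V, the ATP synthase, was represented in every library by small subunits of its membrane part. *Atp5l* (subunit g) had 6995 and 4345 counts in the WT libraries and 57305, 2357 and 14193 in the KO libraries, and in KO1 it made up 63.9% of the complex V counts. *Atp5e*, the epsilon subunit of the catalytic head, had 3689 and 3615 counts, then 11271, 5139 and 12439. *Atp5k* (subunit e) had 1158 and 1146 counts, then 9614, 5751 and 2512. *Atp5j2* (subunit f) had 3728 and 3406 counts, then 11311, 6620 and 13082. For *Atp5e*, *Atp5k* and *Atp5j2* every KO library held more raw counts than either WT library, but total counts differed among libraries. On the TMM scale *Atp5e* overlapped, whereas *Atp5k* and *Atp5j2* did not.

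Other complex V genes were detected in all 5 libraries with KO1 near the floor. *Atp5h* (subunit d of the stalk) had 31895 and 4327 counts in the WT libraries and 16, 25850 and 18258 in the KO libraries. *Atp5j*, also of the stalk, had 5547 and 14114 counts, then 6, 13974 and 15201. *Atp5md*, a small membrane subunit, had 4573 and 1993 counts, then 6, 6166 and 6406. *Atp5c1*, the rotating gamma subunit, was low in WT1 as well, with 29 and 13375 counts, then 25, 28243 and 9543. Mean levels per length were highest for *Atp5l* (1166 CPM per kb), *Atp5h* (734) and *Atp5e* (541). KO1 set this order, as without it *Atp5h* (918 CPM per kb) and *Atp5o* (591) led and *Atp5l* had 377.

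*Atp5g1*, *Atp5g2* and *Atp5g3* encode the same mature c subunit of the membrane rotor, and their mixture differed among libraries. *Atp5g1* had 187 and 2793 counts in the WT libraries and 55, 4365 and 12125 in the KO libraries. *Atp5g2* had 1280 and 1427 counts, then 2, 0 and 3683. *Atp5g3* had 0 and 245 counts, then 17, 53 and 4809. *Atp5g1* was thus the one found in all 5 libraries, although in WT1 *Atp5g2* had more counts. The main catalytic subunits were uneven, as *Atp5b* (beta) had 10 and 25383 counts, then 0, 0 and 46389, and *Atp5a1* (alpha) had 1 and 24927 counts, then 0, 150 and 892. The second *Atp5o* row had 0 counts in all 5 libraries, and the first had 12052 and 17135 counts, then 1, 20070 and 16473.

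The 47 subunit genes above 3 counts in 1 to 4 libraries followed few patterns. Of these, 16 were missing from KO1 alone, among them *Sdhb*, *Cox7c*, *Uqcrh* and *Atp5mpl*. Another 8 were missing from both WT1 and KO1, 5 from KO1 and KO2, and 4 from WT1 alone. A further 3 each were missing from KO2 alone (*Ndufa10*, *Ndufb2* and *Ndufv2*) or from all but WT2 and KO2 (*Sdha*, *Sdhc* and *Sdhd*). *Ndufs3* was the single gene found in every KO library and in no WT library.

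Between the genotypes, 78 of the 87 subunit genes passed the filter on low counts, among 7905 genes tested. No subunit gene was called by edgeR's quasi-likelihood test at an adjusted p under 0.05, where 0 genes were called in the whole table (0.0%). At an unadjusted p under 0.05 the subunit genes again numbered 0, against 86 genes in the whole table (1.09%). DESeq2 called 1 of the 53 subunit genes to which it gave an adjusted p, *Ndufs3*, while it called 790 of 6519 genes in all (12.1%). Limma-voom called 1 of 78, again *Ndufs3*, and 234 of 7905 genes in all (2.96%). The spread among libraries behind these fits was wide, with a common dispersion of 6.44 in edgeR.

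The log2 fold changes, KO over WT, were above 0 for 44 and below 0 for 34 subunit genes, with a median of 0.47. This balance was not stable, as 37 were above and 38 below 0 without KO3 (median −0.14), 52 and 27 without WT2 (2.38), and 56 and 23 without both replicate 1 libraries (0.77). In the same fits the median of all genes tested was 0.51, 6.32 and 0.68. Without WT2 the subunit genes thus lay well below the median gene. Over all 7905 genes the median was 0.78, so that the subunit genes lay 0.31 below the median gene on this scale. Scaling moved both, as the medians were 0.67 for subunit genes and 1.24 for all genes with RLE size factors, and −0.04 and 0.29 with upper-quartile normalization, where the sign of the subunit median turned. The gap to the median gene turned as well, since the subunit genes lay 1.03 above it among genes with at least 10 counts in every library. They lay 0.37 above it with limma-voom and 0.10 above it without both replicate 1 libraries. In other fits the gap widened downward, to −5.91 without WT1, −3.94 without WT2, −2.04 without a filter and −1.73 with the replicate block. By complex the medians were 0.15 for complex I, −0.37 for complex II, 0.27 for complex III, 2.34 for complex IV and 0.55 for complex V. Without KO1 they were 0.06, 0.18, 0.10, 0.12 and 0.26, with complex II turned to above 0, and with limma-voom 0.02, −1.77, 0.24, 0.61 and 0.01. With upper-quartile normalization the medians were 0.03, −0.66, −3.86, 1.52 and −0.10, so that complexes III and V changed sign, and with RLE size factors complex III did (−0.17). Complex IV had 10 of its 12 tested genes above 0, a count that changed with the libraries. Without KO1, 6 of 12 were above 0, while without both KO1 and WT1, 12 of 13 were above 0 and the median was 1.13, beside 0.68 for all genes. Without KO1 the median of all subunit genes was 0.16 and that of all genes 0.14.

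A total of 12 subunit genes did not overlap between the genotypes on the TMM scale, which is 12 of 78 tested beside 887 of all 7905 genes (11.2%). Of these 12, 7 were higher in every KO library, beside 6.68% of all genes, and 5 were lower, beside 4.54%. With 2 against 3 libraries an exact two-sided permutation test cannot go below p = 0.1, and for these 12 genes it gave 0.1 to 0.4. All 12 had an edgeR adjusted p of 1. Leaving out a library can only raise such counts, and of the 78 subunit genes 26 (33.3%) did not overlap without KO1, 32 (41.0%) without WT1 and 33 (42.3%) without WT2, beside 24.2%, 39.4% and 29.5% of all 7905 genes. With DESeq2 size factors it was 8 of 78 beside 868 of all 7905 genes, and 6 of the 12 were among them, whereas *Ndufb3*, *Ndufa12*, *Atp5mpl*, *Cox4i1*, *Atp5k* and *Atp5j2* overlapped on that scale.

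**Figure D3:**
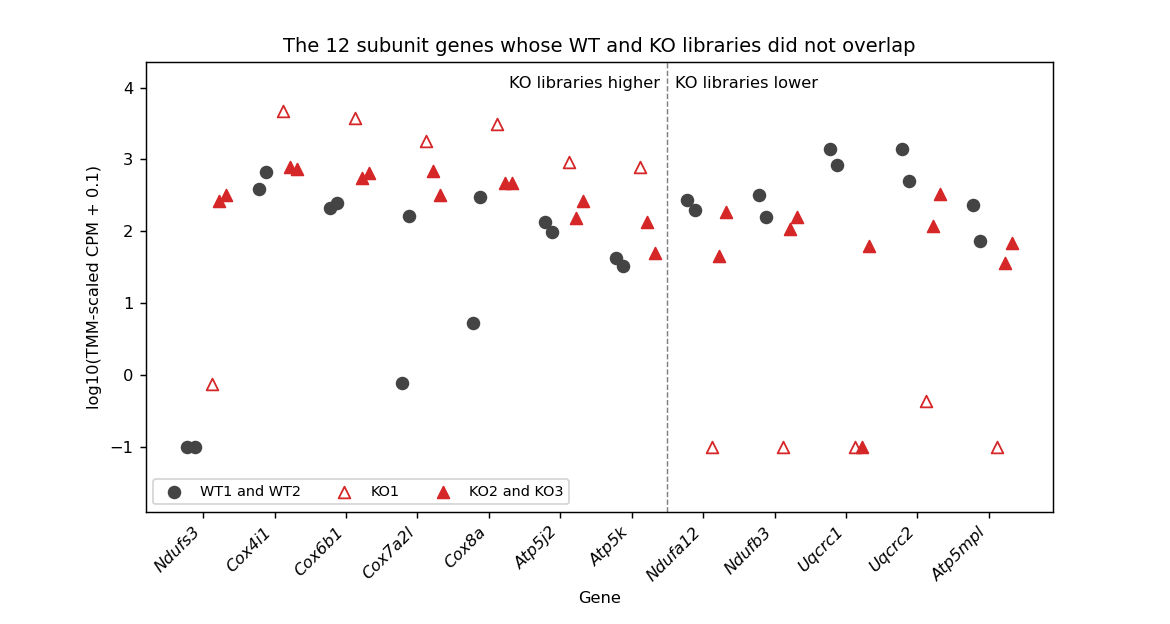
TMM-scaled CPM, as log10(CPM + 0.1), of the 12 subunit genes whose WT libraries (grey circles) and KO libraries (triangles, KO1 open) did not overlap; a value of −1 is a library with 0 counts. KO1 is the highest library for 6 of the 7 genes on the left and at or near 0 for the 5 genes on the right.

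The 7 genes that were higher in the KO libraries included 4 of complex IV. *Cox6b1* had TMM-scaled levels of 210 and 245 CPM against 3745, 551 and 652 CPM, and its log2 fold change was 2.86 (SE 3.11). *Cox4i1* had 390 and 673 CPM against 4750, 779 and 737 CPM, with a log2 fold change of 1.97 (SE 2.76). *Cox7a2l* had 0.688 and 161 CPM against 1790, 688 and 321 CPM, and its log2 fold change was 3.53 (SE 3.69). *Cox8a* had 5.14 and 298 CPM against 3078, 474 and 466 CPM, with a log2 fold change of 3.14 (SE 3.33). For all 4 KO1 was the highest library, and the nearest libraries of the 2 genotypes differed by factors of 2.24 for *Cox6b1*, 1.99 for *Cox7a2l*, 1.56 for *Cox8a* and 1.10 for *Cox4i1*. *Atp5k* (log2 fold change 3.12, SE 4.54) and *Atp5j2* (1.94, SE 3.91) were separated by factors of 1.19 and 1.15 on the TMM scale and overlapped when scaled to total counts. Single libraries moved these log2 fold changes, which without KO1 were 1.20 for *Cox6b1*, 0.34 for *Cox4i1*, 1.58 for *Cox8a*, 1.07 for *Atp5k* and 0.59 for *Atp5j2*. Without WT2 they were 10.04 for *Cox7a2l* and 7.58 for *Cox8a*, and without WT1 1.97 for *Cox8a*.

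*Ndufs3*, a core subunit of the complex I matrix arm (chr2:90894634-90904827), was the remaining gene on the higher side. It had 0 counts in both WT libraries and 8, 11136 and 16072 counts in the KO libraries. On the TMM scale the KO libraries had 0.660, 260 and 320 CPM, a mean of 194 CPM that was at least 1979-fold higher than the mean of the WT floors (3 counts a library). KO1, however, exceeded the higher of the WT floors by a factor of 6.08 only. In edgeR its log2 fold change was 15.66 (SE 8.31, unadjusted p = 0.0594), a size that is no bound, and the permutation test gave p = 0.2. DESeq2 gave it an adjusted p of 0.00143 and limma-voom one of 3.02e-05. With 0 counts in both WT libraries, *Ndufs3* passed the filter on low counts through KO libraries alone. These p-values are therefore no independent support for a difference. Of the 50-base windows of its longest coding transcript, 35.8% also occur in another annotated gene, among them the processed pseudogene *Gm12251*, which had 0 and 0 counts in the WT libraries and 0, 56 and 111 in the KO libraries.

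The genes lower in every KO library were *Uqcrc1* and *Uqcrc2*, described above, and the accessory subunits *Ndufb3*, *Ndufa12* and *Atp5mpl*. *Ndufb3* had TMM-scaled levels of 322 and 160 CPM against 0, 106 and 157 CPM (log2 fold change −1.46, SE 4.22). *Ndufa12* had 270 and 201 CPM against 0, 44.8 and 188 CPM (log2 fold change −1.60, SE 4.27). *Atp5mpl* had 232 and 73.8 CPM against 0, 36.1 and 67.7 CPM (log2 fold change −2.14, SE 4.73). All 3 were at 0 in KO1, and WT2 exceeded KO3 by factors of 1.02 to 1.09 only. Without WT1 the log2 fold changes were −0.75 for *Ndufb3* and −0.97 for *Atp5mpl*, and without KO3 they were −2.20 for *Ndufb3* and −3.41 for *Ndufa12*.

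Genes of the wider pathway, from lists taken by function, gave 0 calls in edgeR as well, and the genes without overlap between genotypes on the TMM scale are to be read beside the 11.2% of all genes. All 13 subunits encoded in mitochondrial DNA were above 3 counts in some library and 10 in all 5, and together they made up 2.44% and 1.12% of counts in the WT libraries and 3.57%, 0.956% and 1.22% in the KO libraries. Of the 12 that were tested, *mt-Atp8* was lower in every KO library on the TMM scale (535 and 880 counts, then 13, 666 and 782). This share was highest in KO1 and next in WT1, the same 2 libraries in which the nuclear subunit genes had their highest shares. The subunits that the name rule does not reach include *Cyc1*, the heme protein of complex III, which had 0 and 0 counts, then 0, 742 and 9847, and *Ndufab1*, the acyl carrier protein of complex I, which had 892 and 10835 counts, then 0, 6271 and 4604. Among 18 genes for electron carriers and coenzyme Q synthesis, 7 were tested and *Etfa*, of the electron transfer flavoprotein, was the single one higher in every KO library (5 and 2679 counts, then 75953, 14047 and 6892). *Cycs*, cytochrome c itself, had 39620 and 14181 counts, then 3, 15402 and 45243, with KO1 at the floor. Of the 50 assembly factors in the table, 28 were tested, 2 (*Coa3* and *Cox17*, of complex IV assembly) were above 3 counts in all 5 libraries, and 2 of the 28 did not overlap between genotypes, *Coa5* being higher and *Higd1a* lower in every KO library. Among 16 regulators of mitochondrial biogenesis, 7 were tested and 1, *Gabpa*, was above 3 counts in all 5 libraries. It had 7 and 7 counts, then 20, 14 and 10248, and was higher in every KO library. Its counts were near the floor in every library but KO3. On the opposite strand *Gabpa* shares 397 exonic bases with *Atp5j*, 12.7% of the exonic bases of *Atp5j*, and the kit does not mark strand. The part of *Atp5j* reads in these counts was not tested.

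Promoters of subunit genes were read for the letters of the factors long linked to them, NRF-1 (GCGCATGC) the ETS factor GABP (CCGGAAGT) and YY1 (AAGATGGC), each on both strands. RefSeq promoters on GRCm38.p6 were matched by symbol for 68 of the 86 symbols, with the start nearest to the annotated gene, and the 250 bases before the start were searched. The NRF-1 letters were in 8 of the 68 (11.8%), against 2.32% of 27025 genes of all kinds (first promoter listed for each), the ETS letters in 3 (4.41%, against 2.93%) and the YY1 letters in 0 (against 1.59%). Over any of the 3 motifs the shares were 16.2% and 6.58%. These shares are not like for like, since the promoters of the subunit genes and of all genes were picked by different rules. The subunit promoters were also richer in G or C, with a median of 55.6% against 52.0%. Bases after the start were not searched. Among the genes with 100 counts in all 5 libraries or without overlap between genotypes, 4 held a match, and these windows are shown 5′ to 3′ on the strand of the gene, with the matching letters in capitals.
*Atp5k* (chr5:108434430-108434459, minus strand): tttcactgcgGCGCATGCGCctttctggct
*Cox6a1* (chr5:115349101-115349130, minus strand): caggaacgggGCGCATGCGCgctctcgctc
*Atp5l* (chr9:44920963-44920992, minus strand): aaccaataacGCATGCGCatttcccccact
*Uqcr11* (chr10:80406869-80406898, minus strand): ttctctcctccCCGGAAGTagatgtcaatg
The first 3 carry the NRF-1 letters, which in *Atp5k* and *Cox6a1* match on both strands within 1 run, and the last carries the ETS letters. The capitals begin 50, 162, 240 and 66 bases before the RefSeq start. The RefSeq start of *Atp5k* lies 49 bases inside the GENCODE gene, so that all but the first of its matching bases are exonic in that annotation. Such matches describe letters and do not show binding. The other 5 genes with the NRF-1 letters were *Atp5g2*, *Ndufa11*, *Ndufa6*, *Ndufa8* and *Sdhb*, each under 100 counts in at least 1 library.

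How reads were shared with near copies limits some of these values. Of the 86 subunit genes with a coding transcript, 40 had at least one 50-base window that also occurs in another annotated gene, and 3 had at least 50% of their windows so shared (*Atp5l*, *Cox5b-ps* and the second *Atp5o* row). *Atp5l* shared 52.5% of its windows with the processed pseudogene *Gm10221*, to which 9 and 14 counts were given in the WT libraries and 225, 8 and 25 in the KO libraries, far under the counts given to *Atp5l*. Among the genes without overlap between genotypes, *Ndufa12* shared 26.2% of its windows with the processed pseudogene *Gm15920* (56 and 68 counts, then 0, 21 and 97), *Cox7a2l* 17.7% with *Gm6969* (at most 2 counts), and *Cox4i1* shares 9.9% of its exonic bases with *Emc8* on the opposite strand, which had at most 122 counts. Expected counts split such reads by estimate, and values of these genes are uncertain to that extent.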

How the data were processed

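RNAseq libraries of sorted aortic macrophages (SMART-Seq v4 ultra-low-input kit, which amplifies full-length cDNA and does not mark strand, so that overlapping and antisense genes cannot be told apart) were assigned to 2 WT and 3 KO libraries from the genotype each label gives. The study's methods speak of triplicates, and 5 libraries were analysed here. The authors aligned paired-end reads to GRCm38 with STAR 2.5.3a, estimated expression per gene with RSEM 1.3.0 and GENCODE mouse version 25, and deposited whole-number counts for 55487 genes, unnormalized and unfiltered. RSEM divides reads that fit several genes.

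Counts were tested with edgeR 4.0.16 in R 4.3.3 (filterByExpr with a minimum count of 10, TMM, quasi-likelihood fit without covariates, Benjamini-Hochberg adjustment over the 7905 genes tested, threshold 0.05). The SE of a log2 fold change is its size divided by the square root of F. TMM-scaled CPM used the effective library sizes of the tested genes, and other CPM the total counts. Permutation tests used log2(CPM + 1). Lengths (exons of the principal transcripts) and coordinates were taken from GENCODE M21 on GRCm38, in which 55227 gene IDs were found without their version number, and levels per length are CPM per kb. The fitting steps were tested on simulated data.

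Members follow from the name rule without use of their values, but the rule and the gene lists were set with earlier results of these data known. Values are given for genes above 3 counts in all 5 libraries, genes without overlap between genotypes and with 100 counts in any library, the 3 highest per length in each complex, isoform groups, the *Sdh* genes and *Uqcrc1*; others (*Ndufv1*, *Cox7b*, *Atp5a1*, *Atp5b*, the first *Atp5o* row and genes that are no subunits by the name rule) were named after their values were seen. Alternatives were DESeq2 1.42.0, limma-voom (limma 3.58.1, sample quality weights), upper-quartile and RLE scaling, 2 other filters, other floors, a block for the replicate number, the removal of mitochondrial genes, the removal of each library and, added after seeing the data, the removal of both replicate 1 libraries. Levels per length without KO1, promoters and shared 50-base windows were added then too. A member is counted in the totals but is not reported by itself here.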

Additional observations from a re-analysis of the deposited data

How the results depend on the processing

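The count of 0 subunit genes called by edgeR held with RLE size factors, upper-quartile normalization, both other filters, the replicate block, mitochondrial genes left out and each library left out, and was 1 with DESeq2 and 1 with limma-voom, *Ndufs3* both times. Of the whole table, edgeR called 0 genes, DESeq2 790 and limma-voom 234. Genes without overlap between genotypes numbered 10 on total counts and 8 with DESeq2 size factors (6 of them among the 12), beside 923 and 868 of all 7905 genes, 17 to 33 with a library left out, beside 20.5% to 39.4% of all genes, and 54 of 78 (69.2%) without both replicate 1 libraries, beside 53.4%. Genes above the floor in every library numbered 18 at 100 counts, 26 at 10 counts, and 60 without both replicate 1 libraries. The median log2 fold change of the subunit genes ranged from −1.14, with the replicate block, to 2.38, without WT2, so that its sign turned. In these fits the median of all genes was 0.60 and 6.32, and the subunit genes lay below it each time. The library medians of the subunit genes had a pooled SD of 3.38. KO1 set much of it (0.58 against 7.60 in KO2 and 7.65 in KO3), so values within it do not show stability. The log2 fold change of *Uqcrc1* ranged from −18.02 to −4.58, the lowest values being no bound, and that of *Cox6b1* from 1.20 to 3.82. The range of *Uqcrc1* leaves out DESeq2, which gave this gene no adjusted p. The signs were set by the choice of both as genes without overlap. Without a WT library the lone WT library was assumed to vary like the others. WT and KO libraries share the numbers 1 and 2, which the labels do not tie to a batch. Deviations correlated with r = 0.24 for pair 1 and 0.07 for pair 2, and with the replicate block 33 subunit genes were above and 45 below 0, and 7 genes in all and 1 subunit gene, *Uqcrc1*, had an unadjusted p under 0.05. Counts at the floor limit what can be said of genes listed at 0.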
